A study of Mus musculus with 4 samples.

Results

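Clustered protocadherins are single-pass adhesion proteins of the cadherin superfamily that neurons display in varying combinations. Their genes lie in the neighbouring alpha, beta and gamma clusters. Each member has its own promoter and its own large first exon, and in the alpha and gamma clusters every first exon is spliced to the same constant exons, so that members differ outside the cell and share their cytoplasmic end. CTCF and cohesin bring a distant enhancer to individual promoters, methylation and Smchd1 keep promoters silent, and the chosen set of isoforms gives a neuron an identity that serves self-avoidance of its branches. The C-type gamma members are expressed more broadly than the others, and Pcdhgc4 is known for its part in the survival of neurons.

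The family was chosen by gene symbol, after ratios of some members in these libraries, among them that of Pcdhgc4, were known. All its values are therefore given as a description. It made up 57 of the 21997 rows of the expression table (14 alpha, 22 beta and 21 gamma rows). 55 members had a symbol that was listed 1 time, and Pcdha11 was listed in 2 rows that could not be matched between libraries. In mm10 (RefSeq annotation of GRCm38.p6) the alpha members span chr18:36930285-37188897, the beta members chr18:37264998-37521419 and the gamma members chr18:37661775-37841873.

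All libraries came from N31, a line of mouse neural progenitor cells (NPCs) obtained by differentiation of iPSCs. Those iPSCs came in turn from ESC-derived NPCs carrying Dox-inducible OKMS, and this origin was common to all 4 libraries. Control NPCs (no control vector is stated in the methods) and NPCs expressing shSrf#1 from a retroviral H1-promoter vector were grown without EGF and bFGF on type I collagen-coated matrices of 0.5 kPa, a stiffness close to that of brain, or 12 kPa, and 1 RNA-seq library was made for each of the 4 conditions. No value has a replicate, so no p-value is given, and the standard errors (SE) cover the counting of reads only. Expression is in FPKM, the number of fragments on a transcript scaled to its length and to the mapped reads of the library. The estimated depth was 29100000 and 24100000 reads for control NPCs at 0.5 and 12 kPa and 45000000 and 62300000 reads for shSrf NPCs, so low values are more precise in shSrf NPCs. Srf, the targeted gene, was at 34.4 and 35.6 FPKM in control and at 16.2 and 17.4 FPKM in shSrf NPCs, so its log2 ratios were -1.09 and -1.03. Of 12 progenitor markers, Sox1, Hes5 and Olig2 were at 0 in all libraries, while Vim (between 1481 and 2396), Nes (15.5 to 51.6), Slc1a3 (9.99 to 36.7), Notch1 (10.8 to 20.6) and Pax6 (2.62 to 6.78) were expressed. Sox2 was 4.29 and 5.49 in control NPCs and 19.1 and 20.4 in shSrf NPCs. Sox2 is among the OKMS genes (Oct4, Klf4, c-Myc and Sox2), so reads of the transgene and of the endogenous gene cannot be told apart here. The summed FPKM of 8 mesenchymal markers, mostly Col3a1, was between 2528 and 2762. The label NPC thus met some but not all of its markers. Where a pair of values is given for control or shSrf NPCs, the first is from 0.5 kPa and the other from 12 kPa, and pairs of ratios follow the same order.

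Gamma members made up nearly all of the family's expression in these cells. Their summed FPKM was 83.5 and 89.4 in control NPCs at 0.5 and 12 kPa, and 97.2 and 99.5 in shSrf NPCs. That was 90.3% and 90.8% of the summed FPKM of the family in control NPCs, and 93.7% and 93.8% in shSrf NPCs. The beta cluster summed to 8.63 and 8.88 in control NPCs and to 5.89 and 6.19 in shSrf NPCs. The alpha cluster was close to silent, with sums of 0.385, 0.195, 0.634 and 0.427 in the same order. As these were bulk libraries, fewer cells that express a gene and less RNA per cell cannot be told apart.

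**Figure D1:**
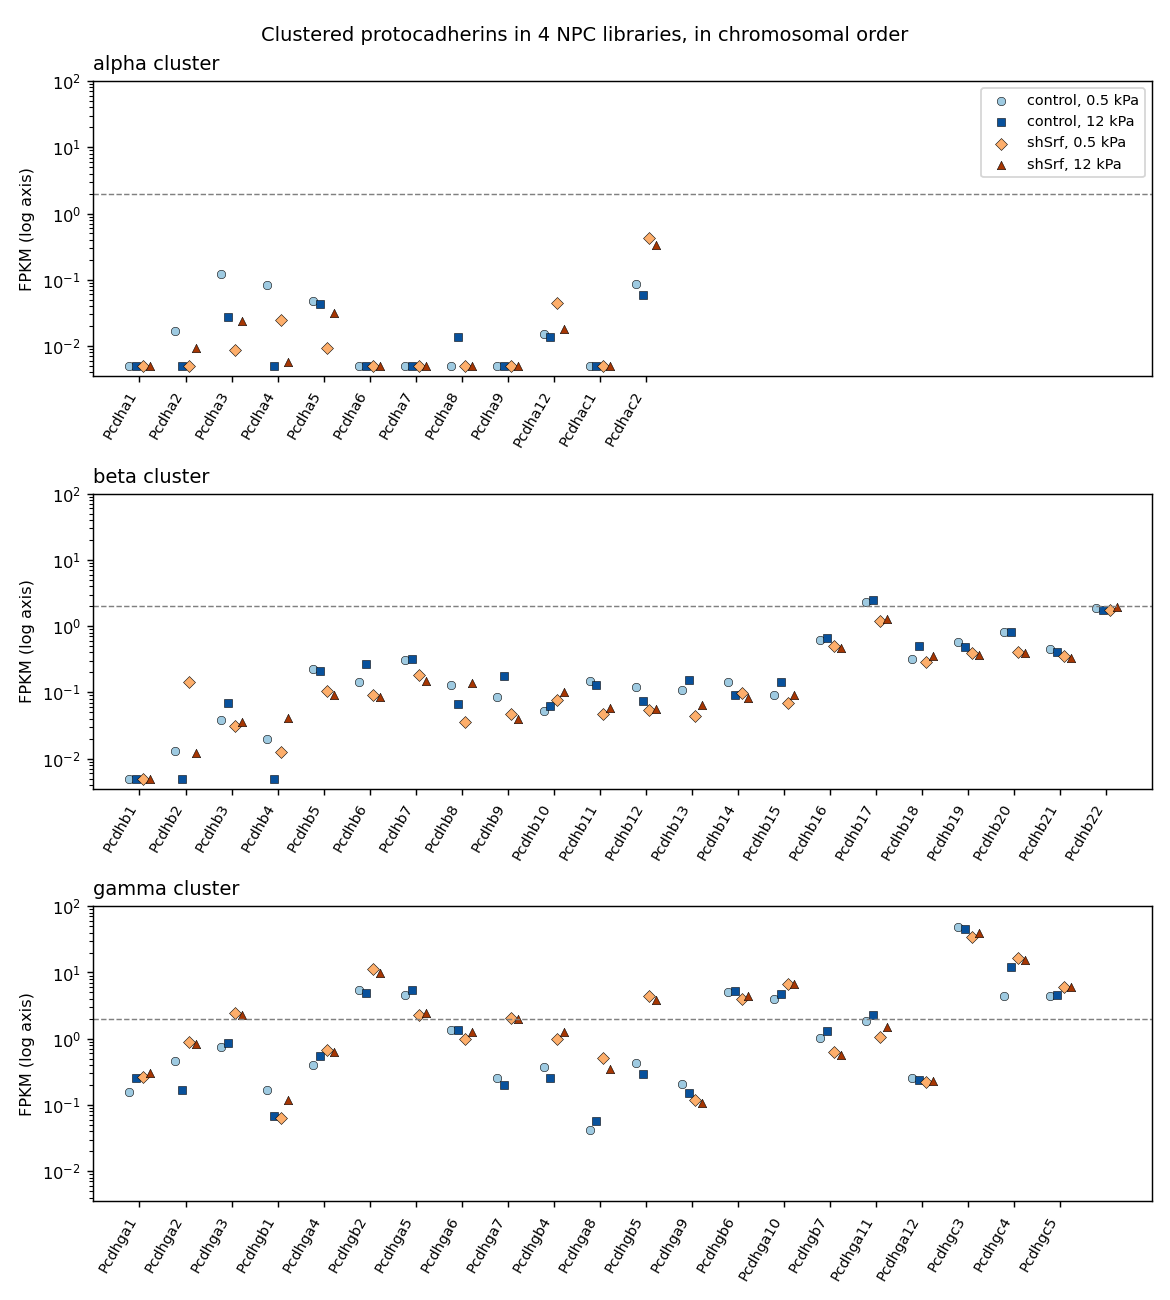
FPKM (log axis) of every member with an unrepeated symbol in each of the 4 libraries, 1 panel per cluster, in chromosomal order. Values under 0.005, zeros included, are drawn at 0.005, and the dashed line marks the FPKM of 2 that the study used as its minimum. Gamma members reach 47.8, beta members reach 2.48, and alpha members reach 0.426.

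Pcdhgc3, a C-type gamma member whose cytoplasmic part can bind Axin1 and dampen Wnt signalling, was the highest member in every library. Its FPKM was 47.8 in control NPCs at 0.5 kPa, 44.6 at 12 kPa, 34.8 in shSrf NPCs at 0.5 kPa and 39.1 at 12 kPa. Both shSrf libraries were below both control libraries. Counted without a minimum, 27.0% of all 21862 genes were lower in shSrf NPCs at both stiffnesses, a looser condition. Pcdhgc3 provided 57.2% and 49.8% of the summed gamma FPKM in control NPCs and 35.8% and 39.3% in shSrf NPCs. The other C-type members, Pcdhgc4 and Pcdhgc5, lie next to it at the end of the cluster. The 3 C-type members together gave 67.9% and 68.2% of gamma expression in control NPCs and 59.1% and 61.1% in shSrf NPCs.

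Among the remaining gamma members expression was uneven. The highest after the C-type members by mean FPKM were Pcdhgb2, Pcdhga10, Pcdhgb6 and Pcdhga5, while 9 of the 21 had a mean FPKM under 1. 10 gamma members reached an FPKM of 1 in each control library, 12 in shSrf NPCs at 0.5 kPa and 13 at 12 kPa. Members that lay side by side on the chromosome differed widely in level. Pcdhga4, for instance, was between 0.397 and 0.686, and Pcdhgb2, which follows it, was between 4.92 and 11.3. Members of the A type provided between 17.1% and 18.9% of gamma expression. Members of the B type provided 15.0% and 13.6% in control NPCs and 22.1% and 20.2% in shSrf NPCs.

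**Figure D2:**
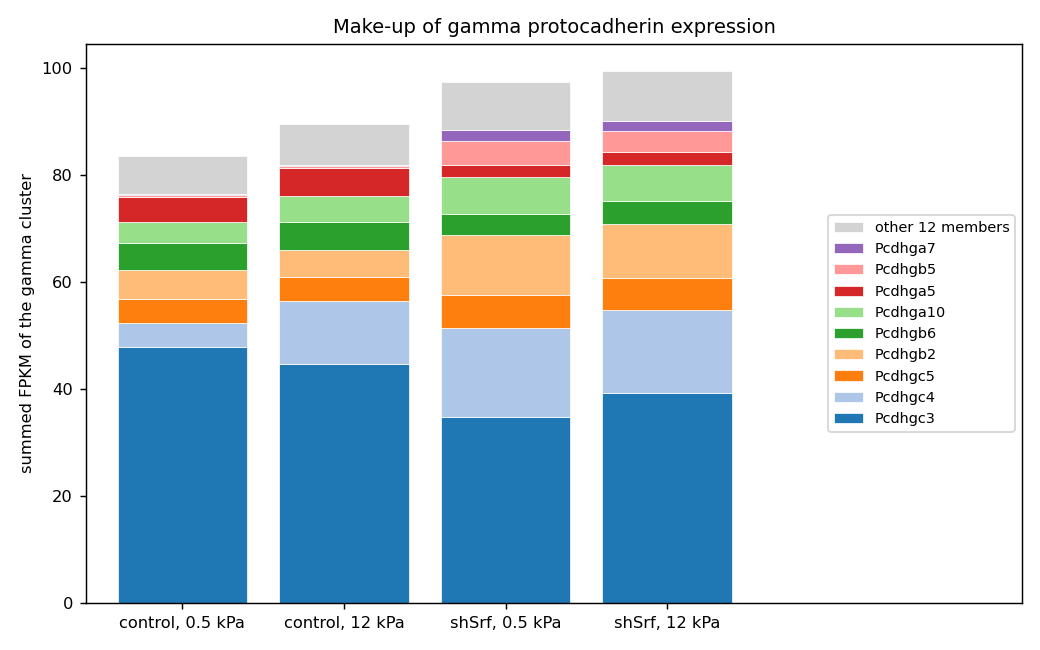
Summed FPKM of the 21 gamma members in each of the 4 libraries, with 1 colour for each of 9 members and grey for the other 12. The bars reach 83.5, 89.4, 97.2 and 99.5. The Pcdhgc3 part is largest in each bar and smaller in the shSrf bars, and the Pcdhgc4 part is smallest in control NPCs at 0.5 kPa.

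Alpha and gamma values carry an uncertainty that touches beta values less. Reads from the shared constant exons cannot be assigned to a member from their sequence, and cufflinks divides them by estimation. In the GENCODE M1 annotation, which holds the 10 gamma transcripts under 1 symbol and 10 of 11 alpha transcripts under another and so does not name their members, the median share of 50-nt stretches that a transcript has in common with another transcript was 44.7% for gamma and 30.7% for alpha. It was 3.84% for 21 beta genes, compared gene by gene. The value of a single gamma member therefore depends on this division, and a sum over the cluster depends on it less. 7 of the 14 alpha rows in each control library held values under 1e-20, which is the result of the division and not a count of reads.

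The first question of the design is whether matrix stiffness changes expression in control NPCs. Among members with an FPKM above 1 in all libraries, Pcdhgc4 had the largest ratio. Its FPKM was 4.44 in control NPCs at 0.5 kPa, 11.9 in control NPCs at 12 kPa, 16.6 in shSrf NPCs at 0.5 kPa and 15.5 at 12 kPa. The control library at 0.5 kPa stood below the other 3. The ratio of 12 to 0.5 kPa was 2.68-fold in control NPCs (log2 1.42, counting SE 0.09) and the log2 ratio was -0.10 (SE 0.04) in shSrf NPCs. The difference between these log2 ratios was 1.52 and could not be tested with 1 library per condition. The control library at 0.5 kPa also enters the ratio of shSrf to control at 0.5 kPa, which was 3.75-fold (log2 1.91, SE 0.08), whereas at 12 kPa it was 1.31-fold (log2 0.39, SE 0.06). The low value in that library thus enters both large ratios. Its log2 ratio in control NPCs lay above the 99th percentile of all included genes, which was 0.55. Pcdhgc4 provided 5.32% of gamma expression in that library and between 13.3% and 17.1% in the others.

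The members on either side of Pcdhgc4 had log2 ratios close to 0. Pcdhgc3 was 44.6 at 12 kPa and 47.8 at 0.5 kPa in control NPCs (log2 ratio -0.10, SE 0.04). Pcdhgc5, the last member of the cluster, was 4.52 and 4.45 (log2 ratio 0.02, SE 0.12). The summed gamma FPKM differed by 0.10 on the log2 scale, and without Pcdhgc3 by 0.33.

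With the inclusion rule of the study, an FPKM above 2 in all 4 libraries, 7 members remained (Pcdhga5, Pcdhgb2, Pcdhgb6, Pcdhga10 and the C-type gamma members). The member just inside this limit was Pcdhga5, whose lowest FPKM was 2.31, and the member just outside it was Pcdhb22, with 1.73. No alpha or beta member was included. Beyond the study's threshold of 1.1-fold, 3 of the 7 were higher at 12 kPa in control NPCs (Pcdhgc4, Pcdhga10 and Pcdhga5), where 17.9% of all 10489 included genes were higher. 1 of the 7, Pcdhgb2, was lower, where 16.9% of all genes were lower. The log2 ratios of Pcdhga10 and Pcdhga5 were 0.24 (SE 0.12) and 0.23 (SE 0.11), and that of Pcdhgb2 was -0.14 (SE 0.11). Except for Pcdhgc4, these lie between the 5th and 95th percentile of all included genes, which were -0.30 and 0.32. The median of the 7 was 0.07, and that of all included genes was 0.003.

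In shSrf NPCs, 5 of the 7 members were within 1.1-fold between stiffnesses. 1 of the 7 members was higher at 12 kPa (Pcdhgc3, log2 ratio 0.17, SE 0.03), with 17.6% of all genes higher, and 1 was lower (Pcdhgb2, log2 ratio -0.19, SE 0.05), with 13.0% lower. The median of the 7 was 0.03 on the log2 scale and that of all included genes 0.006. Among members above 1 in all libraries, Pcdhga11 (1.08 at 0.5 kPa and 1.49 at 12 kPa in shSrf NPCs) had the largest log2 ratio, 0.46 (SE 0.16). In control NPCs it was 1.85 at 0.5 kPa and 2.31 at 12 kPa.

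The second question is how Srf knockdown affects expression at each stiffness. The rank order of the members differed more between control and shSrf NPCs than between stiffnesses. Over the 33 members with a mean FPKM of at least 0.1, Spearman's rho between FPKM values was 0.945 for the 2 control libraries, 0.989 for the 2 shSrf libraries, and between 0.735 and 0.840 for a control and a shSrf library. These are descriptions across genes of the same family, some of which share reads.

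All 7 included members were past 1.1-fold between shSrf and control NPCs, in the same direction at both stiffnesses. 4 were higher (Pcdhgb2, Pcdhga10, Pcdhgc4 and Pcdhgc5) and 3 were lower (Pcdhga5, Pcdhgb6 and Pcdhgc3). Of all included genes, 37.4% were higher and 35.7% lower at 0.5 kPa, and 37.6% were higher and 35.9% lower at 12 kPa. The median log2 ratio of the 7 was 0.43 at 0.5 kPa and 0.39 at 12 kPa, against 0.01 for all included genes at each. The sign of the median rests on which members are included, since with an FPKM above 1 as the minimum 10 members gave -0.24 and -0.02.

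Pcdhgb2, the highest B-type member, was higher in shSrf NPCs. Its FPKM was 5.44 and 4.92 in control NPCs at 0.5 and 12 kPa and 11.3 and 9.96 in shSrf NPCs. The groups did not overlap. Counted without a minimum, 32.4% of all 21862 genes were higher at both stiffnesses, and the share without overlap was not counted. The ratios of Pcdhgb2 were 2.08-fold at 0.5 kPa (log2 1.06, SE 0.08) and 2.02-fold at 12 kPa (log2 1.02, SE 0.09). Pcdhga10 was 4.03 and 4.77 in control NPCs and 6.78 and 6.73 in shSrf NPCs, with log2 ratios of 0.75 (SE 0.10) and 0.50 (SE 0.09). Pcdhgc5, a member found mainly in brain, was 4.45 and 4.52 in control NPCs and 5.9996 and 6.13 in shSrf NPCs. Its log2 ratios were 0.43 and 0.44.

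Pcdhga5, which lies directly after Pcdhgb2, was lower in shSrf NPCs. Its FPKM was 4.58 and 5.35 in control NPCs and 2.31 and 2.45 in shSrf NPCs, with log2 ratios of -0.99 (SE 0.12) and -1.13 (SE 0.11). Pcdhgb6 was 5.04 and 5.29 in control NPCs and 3.98 and 4.37 in shSrf NPCs. Pcdhga11, which was under the minimum, had log2 ratios of -0.78 (SE 0.18) and -0.64 (SE 0.15). For each of these genes the shSrf libraries lay below the control libraries. Of all 21862 genes, 27.0% were lower at both stiffnesses, a looser condition, and the share without overlap was not counted. The log2 ratios of Pcdhgc3 were -0.46 at 0.5 kPa and -0.19 at 12 kPa (SE 0.03 each). The ratios of Pcdhgb2 and Pcdhga5 lay outside the 5th to 95th percentile of all included genes at both stiffnesses, which ran from -0.79 to 0.77 at 0.5 kPa and from -0.74 to 0.79 at 12 kPa, and inside the 1st to 99th.

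Several gamma members that were low in control NPCs were higher in shSrf NPCs. They were picked out after their values had been seen. Pcdhgb5 was at 0.430 and 0.293 FPKM in control and at 4.45 and 3.80 FPKM in shSrf NPCs. This was 10.4-fold at 0.5 kPa (log2 3.37, SE 0.26) and 13.0-fold at 12 kPa (log2 3.70, SE 0.34). Pcdhga7 was 0.254 and 0.202 in control NPCs and 2.04 and 1.96 in shSrf NPCs (log2 3.01, SE 0.34, and 3.28, SE 0.41). Pcdhga3 was 0.743 and 0.861 in control NPCs and 2.46 and 2.25 in shSrf NPCs. For each of these genes both shSrf libraries lay above both control libraries. Of all 21862 genes, 32.4% were higher at both stiffnesses, a looser condition, and the share without overlap was not counted.

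Pcdhgb4 and Pcdhga8, which lie between Pcdhga7 and Pcdhgb5, were higher in shSrf NPCs too. The FPKM of Pcdhgb4 was 0.373 and 0.259 in control NPCs and 1.00 and 1.25 in shSrf NPCs. Pcdhga8 was 0.0419 and 0.0564 in control NPCs, equal to about 3.19 and 3.56 reads on its own exon, and 0.504 and 0.345 in shSrf NPCs, equal to 59.3 and 56.2 reads. So 4 neighbours, Pcdhga7, Pcdhgb4, Pcdhga8 and Pcdhgb5, were low in control NPCs and higher in shSrf NPCs at both stiffnesses.

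Among genes with a mean FPKM of at least 1 (14 members), with 0.1 added to each value, 4 members were past 2-fold higher in shSrf NPCs at both stiffnesses, namely Pcdhga3, Pcdhgb2, Pcdhga7 and Pcdhgb5. Of all 11793 such genes, 3.13% were. None of the 14 was past 2-fold lower at both, and 2.57% of all such genes were. Of the 4, 3 (Pcdhga3, Pcdhga7 and Pcdhgb5) were under 1 in both control libraries and passed the minimum only through their shSrf values, so they had to be higher, and nothing is read from the count. Only Pcdhgb2 did not pass in this way.

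With a mean FPKM of at least 0.1, 33 members remained. 13 of them were past 1.1-fold higher in shSrf NPCs at both stiffnesses and 14 were lower, where 32.5% of all 14156 such genes were higher and 27.8% were lower. The clusters differed in direction. Of the 21 gamma members 12 were higher and 6 lower, of the 11 beta members none was higher and 8 were lower, and Pcdhac2, the only alpha member to pass, was higher. The minimum fixed the direction of some of them, since Pcdhac2 and Pcdhga8 were under 0.1 in both control libraries, and Pcdhb6 and Pcdhb14 in both shSrf libraries. The median log2 ratio, with 0.1 added, was 0.50 at 0.5 kPa and 0.38 at 12 kPa for gamma members, and -0.34 and -0.43 for beta members, against 0.03 at both for all such genes. At a threshold of 1.5-fold, which was added after the data had been seen, 7 gamma members were higher and 3 lower, and 3 beta members were lower, beside 10.6% of all such genes higher and 7.76% lower. With a mean of at least 0.3, also added later, 10 gamma members were higher and 5 lower, and 5 beta members were lower. Of all 13049 such genes, 32.5% were higher and 28.3% lower. Pcdhga7, at 0.254 and 0.202 in control NPCs, passed this minimum only through its shSrf values, so its direction was fixed.

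**Figure D3:**
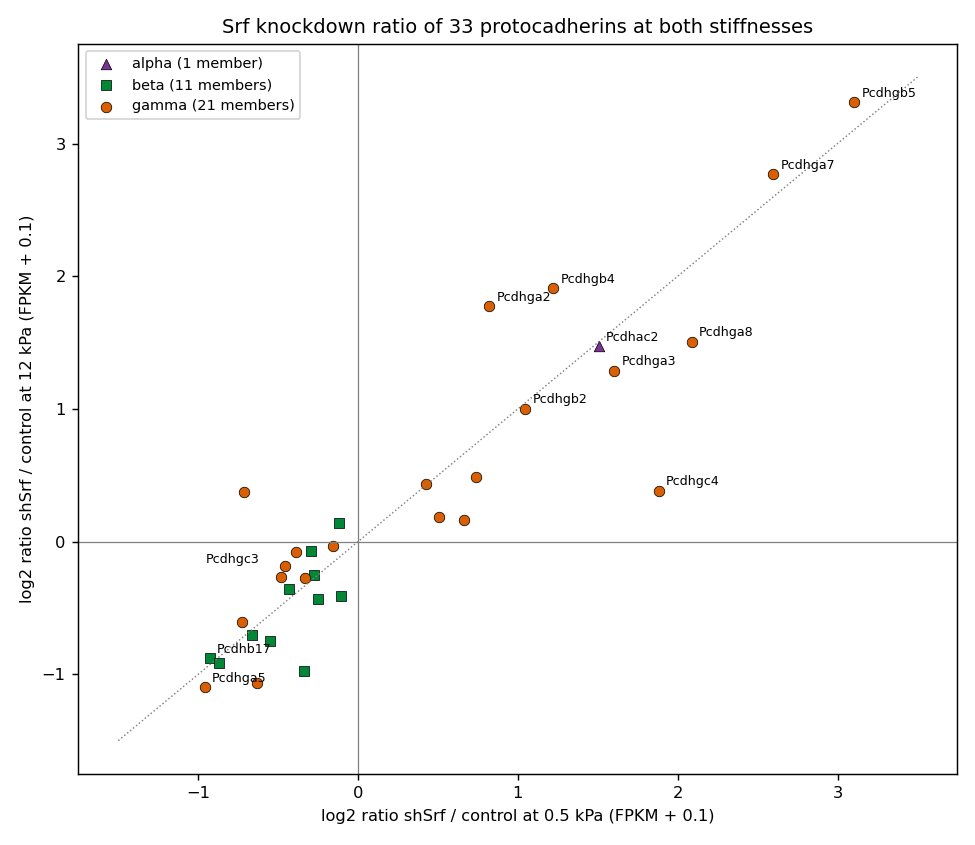
Log2 ratio of shSrf to control NPCs at 0.5 kPa (horizontal) and at 12 kPa (vertical), with 0.1 added to each FPKM, for the 33 members with a mean FPKM of at least 0.1. Each point is 1 gene coloured by cluster, and the dotted line marks equal ratios. Beta members lie at the lower left, with Pcdhb22 just above 0 at 12 kPa, gamma members spread to both sides, and Pcdhgc4 lies below the line.

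Along the gamma cluster the higher members lay mostly in its first part. The calls were again those past 1.1-fold at both stiffnesses, with a mean FPKM of at least 0.1 and 0.1 added to each value. Of the 12 members from Pcdhga1 to Pcdhgb5, 9 were higher in shSrf NPCs at both stiffnesses and 1, Pcdhga5, was lower. Among the 9 was Pcdhga8, which passed the minimum only through its shSrf values, so its direction was fixed. Of the 9 members from Pcdhga9 to Pcdhgc5, 3 were higher (Pcdhga10, Pcdhgc4 and Pcdhgc5) and 5 lower. Under the same rule 32.5% of all 14156 genes were higher and 27.8% lower. The border between the stretches was set after the values were seen, so the split is a description.

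Beta members each consist of 1 exon without a constant part, and their values rest less on the division of shared reads. Of 88 beta values, 57 (64.8%) came out as whole reads within 0.1 read, and 11 of the 22 genes did so in all libraries. Values of 0 were counted as whole, all those of Pcdhb1 among them. In control NPCs the estimates of Pcdhb17 (208.49 and 183.72 reads) and Pcdhb22 (158.23 and 121.58) were not whole. The count therefore does not check the estimates of the highest members. Up to 12.0% of the 50-nt stretches of a beta gene occurred in another, and reads from such stretches may have been removed. Pcdhb17, the highest beta member in control NPCs, was at 2.33 and 2.48 FPKM in control and at 1.18 and 1.30 FPKM in shSrf NPCs (log2 ratios -0.98 and -0.93, SE 0.15 and 0.14). Pcdhb22, the highest in shSrf NPCs, was 1.896 and 1.76 in control NPCs and 1.73 and 1.94 in shSrf NPCs, so that its groups overlapped. The other 20 members made up between 47.6% and 52.3% of beta expression.

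The other beta members were lower in level and mostly lower in shSrf NPCs. Pcdhb20 was 0.818 and 0.827 in control NPCs and 0.403 and 0.392 in shSrf NPCs (log2 ratios -1.02 and -1.08, SE 0.25 and 0.24). Pcdhb16 was 0.622 and 0.668 in control NPCs and 0.508 and 0.469 in shSrf NPCs. Pcdhb19 was 0.569 and 0.490 in control NPCs and 0.397 and 0.361 in shSrf NPCs. For each of these 3 genes the groups did not overlap, though for Pcdhb16 at 0.5 kPa the log2 ratio of -0.29 had a counting SE of 0.20. Counting all 22 beta members without a minimum, 16 were lower in shSrf NPCs at both stiffnesses and 2 were higher at both, many of them on a few reads. Of all 21862 genes, 27.0% were lower at both and 32.4% higher, and the share without overlap was not counted. Pcdhb1 was at 0 in all libraries.

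The same beta FPKM values, converted to estimated reads and summed, were lower in shSrf NPCs. As the reads were calculated from FPKM, they are not a second measurement. Beta members together had an estimated 28.7 reads per 1000000 mapped reads in control NPCs at 0.5 kPa (exact 95% Poisson interval 26.8 to 30.7) and 29.9 at 12 kPa (27.7 to 32.2). In shSrf NPCs they had 19.7 (18.4 to 21.0) and 20.5 (19.4 to 21.7). The intervals of control and shSrf NPCs did not overlap, while those of the 2 stiffnesses did. They cover counting error only, not the spread between cultures, and they take the estimated reads and depth as known. No such comparison was made over all genes. Without Pcdhb17 and Pcdhb22 the order was the same, with 16.1 and 17.2 on the same scale in control NPCs against 11.1 and 10.9 in shSrf NPCs. The log2 ratio of the summed beta FPKM was -0.55 at 0.5 kPa and -0.52 at 12 kPa.

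**Figure D4:**
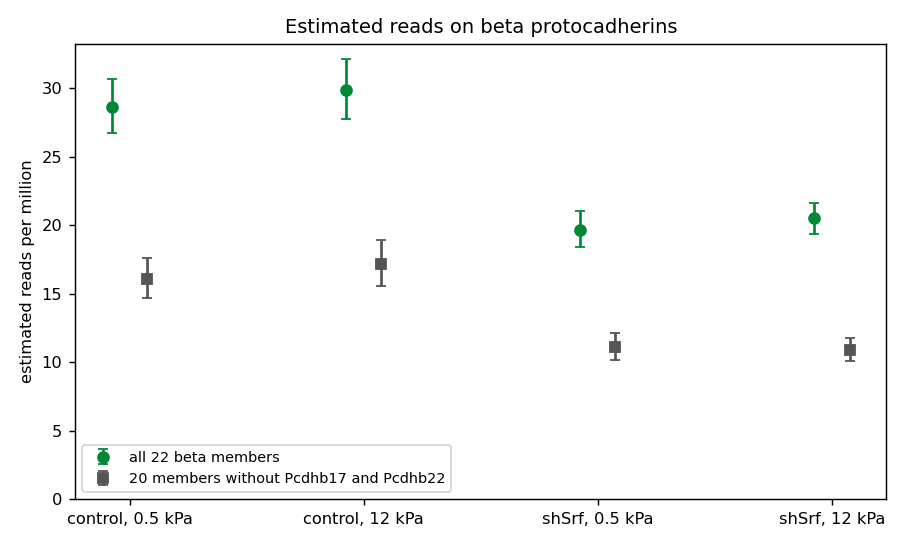
Estimated reads on beta members in each library, scaled per 1000000 mapped reads, for all 22 members (circles) and for 20 members without Pcdhb17 and Pcdhb22 (squares), with exact 95% Poisson intervals. The 2 control libraries are at 28.7 and 29.9 and the 2 shSrf libraries at 19.7 and 20.5 for all members.

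In the alpha cluster Pcdhac2, a C-type member, was the highest in 3 of the 4 libraries. Its FPKM was 0.0851 and 0.0582 in control NPCs, about 5.29 and 2.996 reads, and 0.426 and 0.339 in shSrf NPCs, about 40.9 and 45.0 reads. With 0.1 added to each value its log2 ratio was 1.51 at 0.5 kPa and 1.47 at 12 kPa. The other alpha members were at or near the limit of detection, since 3 reads on a transcript of 2000 nt correspond to an FPKM between 0.0268 and 0.0691 at these depths. Pcdha3 was highest in control NPCs at 0.5 kPa, with 0.121, and lower in the other 3 libraries (0.0276, 0.00880 and 0.0241). Pcdha4, Pcdha5 and Pcdha12 did not exceed 0.0836. Pcdhac1 had values under 1e-20 in all libraries. These values rest on at most 7.52 estimated reads in a library, some of them divided between members, so no ratio is given.

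Markers of several cell types differed between control and shSrf NPCs, and not in 1 direction within a list. Of 12 progenitor markers 6 were above 2 in all libraries, and 3 of these were higher and 3 lower past 1.1-fold at each stiffness. Of all included genes, 37.4% and 37.6% were higher and 35.7% and 35.9% lower. Sox2 (log2 ratios 2.15 and 1.89) was higher, and Nes (-1.65 and -1.22) and Slc1a3 (-1.47 and -1.48) were lower. The value of Sox2 may hold reads of the OKMS transgene. Prom1, which was not above 2 throughout, had log2 ratios of -2.09 and -2.01.

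The summed FPKM of 8 neuron markers was 59.4 and 62.8 in control NPCs and 125 and 120 in shSrf NPCs, mostly from Map2 and Stmn2. Stmn2 was 19.1 and 18.7 in control NPCs and 64.6 and 61.3 in shSrf NPCs. Of the 5 neuron markers above 2 in all libraries, Snap25 was lower (log2 ratios -0.52 and -0.60), Syt1 had log2 ratios of -0.09 and -0.36 and Tubb3 of 0.02 and 0.58, and the median of the 5 was 0.02 and 0.51. The mature neuron marker Rbfox3 was at 0 in all libraries. Of 8 mesenchymal markers 7 were above 2 in all libraries. Of these, 4 were higher and 1 lower past 1.1-fold at 0.5 kPa, and 5 higher and 1 lower at 12 kPa. The shares of all included genes were 37.4% and 37.6% higher and 35.7% and 35.9% lower. Dcn had log2 ratios of 1.54 and 1.60. The summed astrocyte markers stayed between 6.37 and 9.42, and the sums of oligodendrocyte and of pluripotency markers between 1.54 and 4.51. The part of any of these, or of the greater depth of the shSrf libraries, in the protocadherin differences was not tested.

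Of 19 genes known to control protocadherin promoters or the chromatin there, 17 were above 2 in all libraries. Past 1.1-fold, 3 of them were higher and 7 lower in shSrf NPCs at 0.5 kPa, and 3 were higher and 6 lower at 12 kPa. Of all included genes 35.7% and 35.9% were lower, so the share of lower genes in this list was near that of all genes, and 37.4% and 37.6% were higher. Wiz, a zinc finger protein that works with the G9a methyltransferase, was 22.1 and 21.5 in control NPCs and 35.5 and 35.5 in shSrf NPCs (log2 0.69 and 0.72). Smchd1, which silences protocadherin clusters, was 26.9 and 24.97 in control NPCs and 19.1 and 18.3 in shSrf NPCs (log2 -0.50 and -0.45). Wapl, which releases cohesin from DNA, had log2 ratios of -0.51 and -0.50, and Nipbl had -0.44 and -0.53.

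Ctcf itself was 34.9 and 34.3 in control NPCs and 32.7 and 35.6 in shSrf NPCs, so that its groups overlapped. The highest of these genes were Trim28 (between 425 and 446), a corepressor, and the cohesin subunits Rad21 and Smc1a. Rad21 was 120 and 122 in control NPCs and 95.3 and 92.2 in shSrf NPCs. Tet1, which was under 2 in all libraries, was 0.936 and 1.27 in control NPCs and 0.547 and 0.473 in shSrf NPCs. Rest, which binds alpha promoters, had log2 ratios of -0.31 and -0.27.

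Of 17 genes whose products bind or cleave clustered protocadherins, 15 were above 2 in all libraries. Of these, 5 were higher and 6 lower past 1.1-fold at 0.5 kPa, and 7 were higher and 5 lower at 12 kPa, beside 37.4% and 37.6% of all included genes higher and 35.7% and 35.9% lower. Ptk2, the focal adhesion kinase that binds the constant domain, was 46.6 and 42.9 in control NPCs and 24.4 and 23.3 in shSrf NPCs (log2 -0.93 and -0.88). Adam10, the protease that sheds the extracellular part, was 87.6 and 97.3 in control NPCs and 58.0 and 57.3 in shSrf NPCs (log2 -0.59 and -0.76). By mean FPKM the highest of these genes were Brk1 (between 136 and 165), a subunit of the WAVE complex, and the gamma-secretase subunits Psenen (between 119 and 138) and Aph1a (between 77.6 and 142). Aph1a had log2 ratios of 0.77 and 0.56. Axin1 was 55.1 and 38.2 in control NPCs at 0.5 and 12 kPa and 48.7 and 50.7 in shSrf NPCs.

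The non-clustered delta protocadherins, which lie elsewhere in the genome and do not share the promoter choice of the clusters, were mostly lower in shSrf NPCs. Of 10 genes, 7 were above 2 in all libraries. Of these, none was higher and 6 were lower past 1.1-fold at each stiffness, and 5 were lower at both. Of all included genes, 35.7% and 35.9% were lower and 37.4% and 37.6% higher. The median log2 ratio of the 7 was -0.36 at 0.5 kPa and -0.43 at 12 kPa. Pcdh19, which cooperates with N-cadherin in adhesion, was 59.9 and 57.8 in control NPCs and 22.2 and 21.6 in shSrf NPCs (log2 -1.43 and -1.42). Pcdh10 was 31.1 and 35.4 in control NPCs and 15.1 and 18.8 in shSrf NPCs. Pcdh20 and Pcdh11x, both under the minimum, were lower at both stiffnesses, with log2 ratios between -1.91 and -1.08. Pcdh18 was between 51.6 and 57.2, Pcdh7 between 40.4 and 54.5, Pcdh1 between 26.3 and 33.5 and Pcdh9 between 16.7 and 18.9. In these cells Pcdh19, Pcdh18, Pcdh7, Pcdh1 and Pcdh9 had FPKM values above those of every clustered member other than Pcdhgc3.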

How the data were processed

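Single-end TruSeq Stranded mRNA reads of 4 libraries were processed by the authors with cutadapt 1.9.1, TopHat2 2.1.0, Bowtie2 2.2.8 and Cufflinks 2.2.1 on mm10 and GENCODE version M14, using reads of high mapping quality. The values deposited by the authors are FPKM per gene, used here without rescaling. Whether Cufflinks was set to use strand is not given in the sources used here. Removal of reads that map to several places lowers the values of members with similar exons.

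Members were symbols starting with Pcdha, Pcdhb or Pcdhg. The members, gene lists and naming rule were selected with earlier results of these data known. 63 repeated symbols were left out of ratios, but summed FPKM includes every row. Log2 ratios used genes above an FPKM of 2 in all libraries and the study's threshold of 1.1-fold, or 0.1 added to each value for lower members. With 1 library per condition no test was run, and percentages of all genes stand beside counts. Genes named by rule were Srf, the C-type members and the 5 highest members of each cluster. So were the 3 largest rises and falls among members above 1 in all libraries. From the regulator, partner and delta lists they were the 3 highest genes and those past 1.5-fold at both stiffnesses. Other members were named after their values were seen. Smchd1, Wapl, Nipbl, Ctcf, Rest, Axin1, Pcdh1, Pcdh9 and the cell type markers were named outside these rules, with their values known.

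Depth was estimated from the step between FPKM values under 0.1. Reads per member were estimated from FPKM, depth and length, which for beta members was that of the transcript less 200 nt and for alpha and gamma members the cluster's median length of sequence shared with no other transcript, and counting standard errors and exact Poisson intervals (confidence level 95%) follow from them. They cover counting error only, as reads carried no molecular identifiers. Only the calls past 1.1-fold were tested on simulated data, with known 2-fold changes. The estimates of depth, reads and intervals were not tested in this way. The calculation was run in Python 3.11.15 with pandas 2.3.3, numpy 2.4.6 and scipy 1.17.1. Alternatives were another minimum, pseudocount, scaling or threshold, and leaving out the highest member of a cluster.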

Additional observations from a re-analysis of the deposited data

How the results depend on the processing

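No paired analysis was possible because the labels give a single library per condition, and for the same reason no library was left out. Depth limits the alpha members most, and the division of constant-exon reads limits single gamma members. A correction for GC content was not run, since of the 7 included members only Pcdhgc5 had a transcript of its own in the annotation used.

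Centring on the median of all genes and scaling to the 75th percentile kept the direction of every median and every count of members. The median log2 ratio of shSrf to control was reversed with other sets of members. At 0.5 kPa it was -0.24 with a minimum FPKM of 1, -0.46 with a minimum of 5 (Pcdhgc3 alone) and -0.034 without a minimum and 1 added to each value. At 12 kPa it was -0.021 and -0.19 with a minimum of 1 and 5, and 0 without a minimum. With a mean of at least 1 and 0.1 added it was 0.15 at 0.5 kPa. The control stiffness median was -0.10 with a minimum of 5. These settings change which members are included, and further causes were not tested.

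With other minimums, the number of members past the threshold rose with the number included. That was 1 with a minimum of 5, 14 with a mean of at least 1 and 55 without a minimum. The setting without a minimum had 1 added to each value. With other thresholds the number included stayed at 7, so those counts reflect the threshold. The share of all genes was not counted in these settings, so the counts are a description. For stiffness in control NPCs the count was 0 with a minimum of 5 and 8 with a mean of at least 1. It was 10 without a minimum, and 1 at thresholds of 1.2-fold, 1.5-fold and 2-fold (Pcdhgc4). For stiffness in shSrf NPCs it was 5 with a minimum of 1, 1 with a minimum of 5, 6 with a mean of at least 1, 8 without a minimum, and 0 at 1.2-fold, 1.5-fold and 2-fold. For shSrf against control at 0.5 kPa it was 1 with a minimum of 5, 13 with a mean of at least 1, 25 without a minimum, 4 at 1.5-fold and 2 at 2-fold. At 12 kPa it was 1, 13, 24, 2 and 2 in the same settings.

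For the summed FPKM, leaving out the highest member, Pcdhgc3, took the gamma log2 ratio of shSrf to control to 0.81 at 0.5 kPa and 0.43 at 12 kPa, and that of stiffness in control NPCs to 0.33. The median of gamma members with 0.1 added was 0.50 at 0.5 kPa and 0.38 at 12 kPa. Without Pcdhb22, its highest member by mean, the beta ratio was -0.69 and -0.75, and its median was -0.31 and -0.35. The alpha sum was reversed without Pcdhac2, to -0.52 at 0.5 kPa and -0.62 at 12 kPa, and its median was 0 at both. For stiffness the alpha ratio without Pcdhac2 was -1.14 in control and -1.23 in shSrf NPCs, and its median was -0.0084 and 0. The cause was not tested. With a mean FPKM of at least 0.3, an alternative chosen after seeing the data, 5 beta members were lower in shSrf NPCs at both stiffnesses.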
